A study of Mus musculus with 11 samples.

Results

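The genes described here are 9 adhesion genes, grouped under the name of Sertoli and germ cell adhesion. The name is that of the list, and Vcam1 is best known from other cells, activated endothelium and stromal cells. They were taken by symbol from the deposited table of testis reads, which lists 23074 genes, and all 9 were found once: the tight junction genes Cldn11, Ocln and Tjp1, the gap junction gene Gja1, the cadherin gene Cdh2, the integrin gene Itga6, and the genes Jam3, Cadm1 and Vcam1 of the immunoglobulin (Ig) superfamily. RNA-Seq was performed on decapsulated testes of 5 wild type (WT) and 6 Rfx2-/- mice at postnatal day 21 (P21), when the first wave of germ cells has reached the end of meiosis and the first round spermatids are present. RFX2 is a germ line transcription factor of the Regulatory Factor X family, and the comparison of the genotypes asks which transcripts depend on it. Mice of both genotypes came from a mixed C57BL/6|129/Sv|FVB/N background, and the Rfx2-/- mice lacked exon 7, which holds much of the DNA binding domain, in every tissue, since it had been excised by a Cre transgene with the ubiquitous ACTB promoter, and the mixed background line kept its neo cassette. The labels name no pooling of animals, and the mice are called here by the replicate numbers of the labels, WT mice 1 to 5 and Rfx2-/- mice 6 to 11.

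Sertoli cells are the epithelial cells of the seminiferous tubule, and every germ cell is held by them while it divides, passes through meiosis and changes shape. Near the base of the tubule, neighbouring Sertoli cells are sealed to each other by the blood-testis barrier, in which tight junctions, adherens junctions and gap junctions lie side by side. Higher up, elongating spermatids are held by a testis-specific junction built on Sertoli cell actin, the ectoplasmic specialization, until sperm are released.

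A total of 22232097 to 29769483 reads were counted per mouse, and each of the 9 genes had between 540 and 12495 reads in every mouse, far above the 3 reads taken as the floor of a library. Levels are given as CPM, reads scaled to a common library size with TMM factors, and a gene was called changed at a Benjamini-Hochberg (BH) adjusted p of at most 0.01 from the quasi-likelihood test of edgeR, at any fold change. All 14 Sertoli cell markers and all 9 spermatocyte markers tested were detected, Clu and Aard among the former and Piwil1 and Sycp2 among the latter having the highest levels. Rfx2 itself is no check of the genotypes, since reads on exons other than exon 7 remain: its level was 191 to 472 CPM in WT and 282 to 324 CPM in Rfx2-/- mice. WT mice 3 and 5 stood apart from the other libraries. Their spermatocyte marker score, the mean log2 CPM of the list, was 7.42 and 7.31, against 7.78 to 8.16 in the other 9 mice, their Sertoli cell score was 7.09 and 7.22, against 6.42 to 6.89, and their TMM factors were both 1.18, against 0.894 to 1.02. Values without these mice are given below for the 9 genes and the marker scores, and not for the genes of wider lists.

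Most of the 9 genes were somewhat lower in Rfx2-/- testis, but only Vcam1 was called changed, with a level 50.2% lower. The log2 fold change was below 0 for 8 of the 9 genes, with a median of -0.31, while the median over all 15745 tested genes was -0.05, with 54.8% of them below 0. Of the 9 genes, 1 was called lower and 0 were called higher, where 1.94% of all tested genes were called lower and 0.730% higher. With a looser limit of 0.05 on the adjusted p, 2 genes were lower, Vcam1 and Cadm1, where the share of all tested genes was 8.78% lower and 6.15% higher. At an unadjusted p under 0.05 from edgeR, 5 of the 9 genes were lower and 0 higher, where 23.7% of all tested genes were lower and 18.1% higher. The CPM ranges of the genotypes did not overlap for Cadm1 and Vcam1, both lower in Rfx2-/- mice, where 5.20% of all tested genes were lower and 6.50% higher without overlap. In whole testis RNA, fewer cells of a type and less RNA per cell cannot be told apart.

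**Figure D1:**
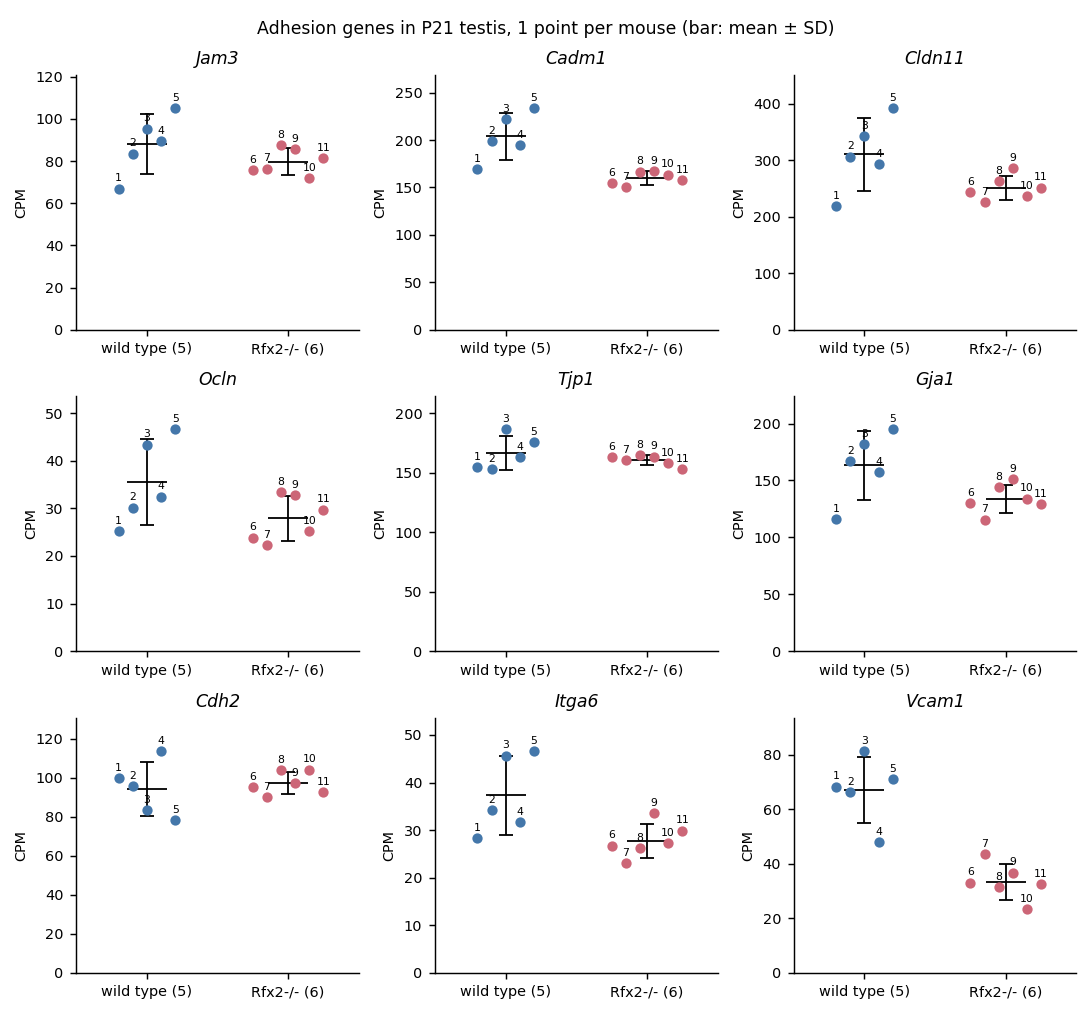
Level of each of the 9 adhesion genes in CPM (vertical axes, from 0) in 5 WT and 6 Rfx2-/- mice, with the replicate number beside each point and the mean ± SD as black bars. For Cadm1 and Vcam1 all Rfx2-/- mice lie below all WT mice, and WT mouse 5 is the highest point for 6 of the 9 genes.

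The Ig-type adhesion molecules are described first. Vcam1 (ENSMUSG00000027962, GRCm38 chr3:116109949-116129688, minus strand) encodes a ligand of alpha4 beta1 integrin best known from activated endothelium and stromal cells. Its level was 68.2, 66.3, 81.3, 48.0 and 71.0 CPM in WT mice 1 to 5, while in the 6 Rfx2-/- mice the lowest value was 23.5, the median 32.7 and the highest 43.3 CPM. Every Rfx2-/- mouse lay below WT mouse 4, the lowest of its group, and Rfx2-/- mouse 7 came nearest to it. The mean fell from 67.0 ± 12.1 (SD, n = 5) to 33.4 ± 6.55 CPM (SD, n = 6), a log2 fold change of -1.005 ± 0.16 (SE; edgeR, BH-adjusted p = 0.00345), and the 95% confidence interval ran from -1.35 to -0.66. Without WT mice 3 and 5 the log2 fold change was -0.86 and the edgeR adjusted p 0.0166, past the limit of 0.01. Leaving out single mice gave -1.10 to -0.92, and the edgeR adjusted p rose above 0.01, to at most 0.0118, without WT mouse 2 or 3 or Rfx2-/- mouse 6, 8 or 11.

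Cadm1 (ENSMUSG00000032076, chr9:47530173-47857637, plus strand) encodes SynCAM1, a nectin-like molecule of germ cells by which spermatogonia, early spermatocytes and elongating spermatids attach to Sertoli cells, and male mice without it are infertile. The WT mice had 170, 199, 222, 195 and 234 CPM, and the Rfx2-/- mice had 150 CPM at the lowest, 160 at the median and 167 at the highest. The groups did not overlap, but the gap between WT mouse 1 and the highest Rfx2-/- mouse, number 9, was narrow. Cadm1 was 21.5% lower in Rfx2-/- testis, with a log2 fold change of -0.35 ± 0.08 (SE), which missed the limit of 0.01 (edgeR, BH-adjusted p = 0.0217). Without WT mice 3 and 5 the log2 fold change was -0.22 and the edgeR adjusted p 0.0496. It was called under other tests, with an adjusted p of 0.00199 by the Wald test of DESeq2 and of 0.00403 by limma voom, and without WT mouse 1 in edgeR, with an adjusted p of 0.00507.

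Jam3 (ENSMUSG00000031990, chr9:27097384-27155421, minus strand) encodes JAM-C, which round and elongating spermatids carry and which binds JAM-B, the product of Jam2, on Sertoli cells. In the WT mice its level was 66.9, 83.6, 95.4, 89.6 and 105 CPM. In the Rfx2-/- mice it was 71.9 CPM at the lowest, 79.0 at the median and 87.8 at the highest, within the WT range. The log2 fold change was -0.14 ± 0.10 (SE; edgeR, BH-adjusted p = 0.298), with a 95% confidence interval from -0.37 to 0.09, and it was 0.01 without WT mice 3 and 5. Leaving out single mice gave -0.23 (edgeR, BH-adjusted p = 0.043), without WT mouse 1, to -0.06, without WT mouse 5. Its partner Jam2, picked for that role, had 76.1 ± 13.5 CPM (SD, n = 5) in WT and 61.6 ± 6.95 CPM (SD, n = 6) in Rfx2-/- testis, a log2 fold change of -0.30 that was not called (edgeR, BH-adjusted p = 0.0847).

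The tight junction genes come next. Claudin-11, the product of Cldn11, forms the strands of the Sertoli cell barrier, and male mice without it are sterile. Occludin, the product of Ocln, is a second membrane protein of these strands, and Tjp1 encodes ZO-1, the scaffold that ties both to actin. Upstream sequence was given for these genes and for Gja1, the connexin of the same barrier, in the RefSeq promoter table of GRCm38.p6, which matched 4 of the 9 genes. For each gene the 250 bases before an annotated start are printed, 5′ to 3′ on the strand of the gene, from the windows the table held. Cldn11, Ocln and Gja1 are among the genes that moved together from mouse to mouse. None of the printed windows overlaps an exon of its own gene in the GENCODE annotation. Capitals mark GTTGCC or GGCAAC, the letters of one arm of the X-box that RFX proteins bind, and GGGCGG or CCGCCC, the GC box, on either strand, and no match overlapped another motif.
Cldn11, chr3:31149670-31149919, plus strand: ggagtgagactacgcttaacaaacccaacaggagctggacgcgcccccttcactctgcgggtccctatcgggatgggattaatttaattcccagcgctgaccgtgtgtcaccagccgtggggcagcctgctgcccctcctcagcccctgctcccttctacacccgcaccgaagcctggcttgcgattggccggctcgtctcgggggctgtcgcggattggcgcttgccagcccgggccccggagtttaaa
Ocln, chr13:100552719-100552968, minus strand: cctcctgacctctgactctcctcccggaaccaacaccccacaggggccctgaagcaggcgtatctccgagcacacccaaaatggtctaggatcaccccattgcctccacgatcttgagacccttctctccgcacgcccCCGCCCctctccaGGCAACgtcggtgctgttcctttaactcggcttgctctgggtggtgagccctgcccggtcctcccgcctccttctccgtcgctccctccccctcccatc
Gja1, chr10:56377050-56377299, plus strand: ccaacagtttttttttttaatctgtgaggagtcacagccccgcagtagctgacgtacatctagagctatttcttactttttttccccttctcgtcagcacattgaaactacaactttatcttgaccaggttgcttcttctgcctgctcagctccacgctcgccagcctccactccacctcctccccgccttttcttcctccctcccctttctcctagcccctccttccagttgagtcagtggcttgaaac
Tjp1, chr7:65371245-65371494, minus strand: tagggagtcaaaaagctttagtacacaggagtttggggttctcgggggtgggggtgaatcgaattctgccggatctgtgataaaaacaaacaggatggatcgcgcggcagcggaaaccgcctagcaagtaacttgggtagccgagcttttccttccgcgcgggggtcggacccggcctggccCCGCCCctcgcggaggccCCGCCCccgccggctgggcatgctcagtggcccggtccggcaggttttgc
The letters of the X-box arm were found once in the printed windows, in that of Ocln, where 10.4% of 32851 windows of the same length held them. The GC box was found in the Ocln and Tjp1 windows, against 32.7% of all windows, and the Cldn11 and Gja1 windows held neither. A second Ocln window of the table, chr13:100552499-100552748, was not printed and has 155 bases in Ocln exons. It held 1 GC box and no X-box arm. Such matches describe the letters and not binding. The Tjp1 window lies within the gene as GENCODE draws it, which runs from 65296165 to 65527781 on the minus strand of chromosome 7.

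Cldn11 (ENSMUSG00000037625, chr3:31149920-31164324, plus strand) had a level of 218, 306, 343, 293 and 393 CPM in WT mice 1 to 5 and 226 CPM at the lowest, 248 at the median and 286 at the highest in Rfx2-/- mice. WT mouse 1 lay below all Rfx2-/- mice and the other WT mice above them, so that the ranges overlapped through 1 mouse. The log2 fold change was -0.31 ± 0.13 (SE), with a 95% confidence interval from -0.59 to -0.02 (edgeR, BH-adjusted p = 0.101). It was -0.11 without WT mice 3 and 5, and -0.41 without WT mouse 1 (edgeR, BH-adjusted p = 0.018) to -0.19 without WT mouse 5.

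Ocln (ENSMUSG00000021638, chr13:100496507-100552718, minus strand) had 25.2, 30.1, 43.4, 32.5 and 46.6 CPM in the WT mice. The Rfx2-/- mice had 22.3 CPM at the lowest, 27.5 at the median and 33.3 at the highest, and only WT mice 3 and 5 lay above all of them. The log2 fold change of -0.35 ± 0.17 (SE) was not called (edgeR, BH-adjusted p = 0.144), and without WT mice 3 and 5 it was -0.06. Leaving out single mice gave -0.45, without WT mouse 1, to -0.22, without WT mouse 5. Tjp1 (ENSMUSG00000030516) varied least. It had 155, 153, 187, 163 and 176 CPM in WT mice and 153 CPM at the lowest, 162 at the median and 165 at the highest in Rfx2-/- mice. WT mice 1 and 4 lay within the Rfx2-/- range, WT mouse 2 just under it and WT mice 3 and 5 above it. The log2 fold change of Tjp1 was -0.05 ± 0.06 (SE; edgeR, BH-adjusted p = 0.498), with a 95% confidence interval from -0.18 to 0.08. Its sign turned without WT mice 3 and 5.

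Gja1 (ENSMUSG00000050953, chr10:56377330-56402513, plus strand) encodes connexin 43, the main gap junction protein between Sertoli cells and between Sertoli and germ cells. It had 116, 167, 182, 157 and 195 CPM in WT mice, and 116 CPM at the lowest, 132 at the median and 151 at the highest in Rfx2-/- mice. WT mouse 1 was level with the lowest Rfx2-/- mouse, number 7, and the other WT mice lay above all Rfx2-/- mice. The log2 fold change was -0.29 ± 0.12 (SE; edgeR, BH-adjusted p = 0.102), and it was -0.12 without WT mice 3 and 5.

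Cdh2 (ENSMUSG00000024304, chr18:16588877-16809246, minus strand) encodes N-cadherin, which links Sertoli cells to each other and to germ cells. It was the only one of the 9 genes with a log2 fold change above 0 in edgeR with TMM scaling, all mice and no covariate, 0.04 ± 0.09 (SE; edgeR, BH-adjusted p = 0.714). The sign of the Cdh2 value turned with total counts as library sizes, where it was -0.11, and also without WT mice 3 and 5. Its level was 99.95, 95.8, 83.3, 114 and 78.5 CPM in WT mice and 90.2 CPM at the lowest, 96.2 at the median and 104 at the highest in Rfx2-/- mice. WT mice 3 and 5, which had among the highest values for the other genes, had the lowest ones here. The 95% confidence interval of the log2 fold change was -0.16 to 0.25.

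Itga6 (ENSMUSG00000027111, chr2:71745616-71858416, plus strand) encodes the alpha6 integrin chain, a laminin receptor of spermatogonia and of the ectoplasmic specialization. It had 28.3, 34.2, 45.7, 31.6 and 46.6 CPM in WT mice and 23.0 CPM at the lowest, 27.0 at the median and 33.5 at the highest in Rfx2-/- mice. WT mice 3 and 5 were well above all other mice, whereas the other WT mice lay within or just above the Rfx2-/- range. Its log2 fold change of -0.43 ± 0.15 (SE) was the second largest of the 9 genes in size and was not called (edgeR, BH-adjusted p = 0.0637). Without WT mice 3 and 5 it was -0.17.

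**Figure D2:**
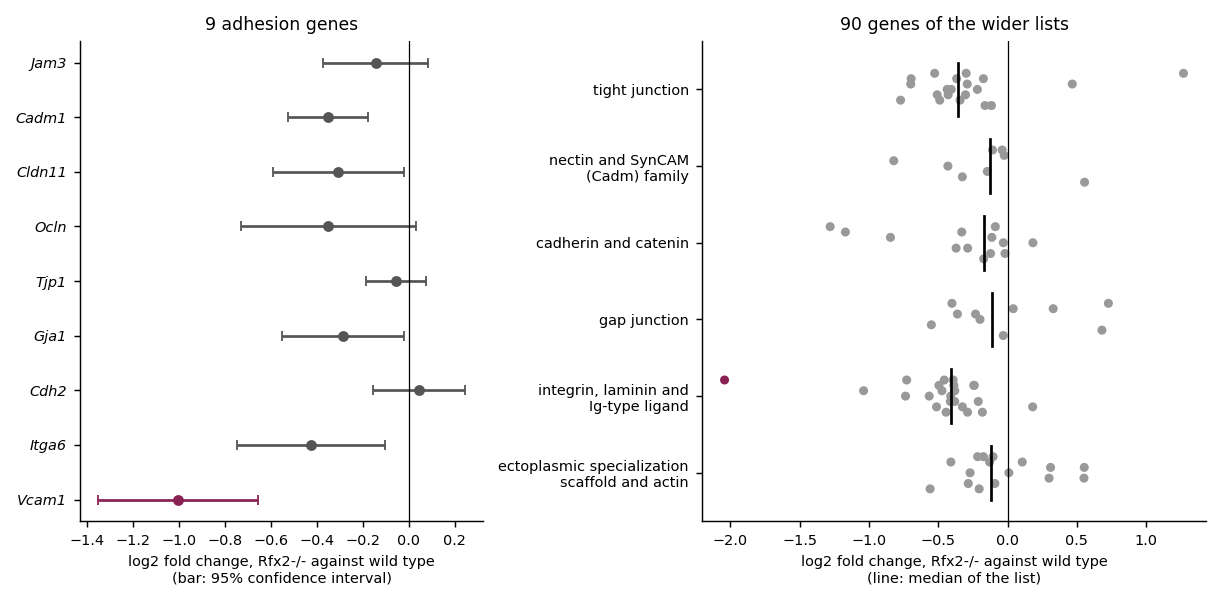
Left, log2 fold change of the 9 adhesion genes (Rfx2-/- against WT, horizontal axis) with its 95% confidence interval, and right, the same for 90 tested genes of 6 wider lists, 1 point per gene with the median of each list as a line. Purple marks an adjusted p of at most 0.01, reached by Vcam1 at -1.005 and Ncam1 at -2.04.

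Levels between genes were compared per kilobase of merged exon. Cldn11 had 166 ± 34.5 CPM per kb (SD, n = 5) in WT testis and no other gene came near it, as Jam3 followed with 45.4 ± 7.37, Gja1 with 43.6 ± 8.06 and Cadm1 with 35.4 ± 4.37 CPM per kb. Tjp1 had 22.6 ± 1.94, Cdh2 19.0 ± 2.83, Vcam1 13.1 ± 2.37, Ocln 8.42 ± 2.15 and Itga6 6.60 ± 1.48 CPM per kb. Neighbours in this order overlapped over the WT mice, except that Cldn11 lay above Jam3 and Cadm1 above Tjp1 in all of them. In Rfx2-/- testis Vcam1, with 6.54 ± 1.28 CPM per kb (SD, n = 6), came after Ocln with 6.60 ± 1.12, and the remaining order was the same. None of the 9 genes shared exon sequence with another coding gene in the GENCODE annotation.

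The SD of the log2 CPM was larger in WT than in Rfx2-/- mice for 8 of the 9 genes, as it was for 81.6% of all tested genes. It was 0.32 against 0.12 for Cldn11 and 0.18 against 0.06 for Cadm1, and about equal for Vcam1, 0.28 against 0.29. WT mouse 5 was the highest of all mice for 6 genes, Jam3, Cadm1, Cldn11, Ocln, Gja1 and Itga6, and WT mouse 1 was the lowest WT mouse for the same 6. Rfx2-/- mouse 7 was the lowest of its group for 6 genes as well, and the highest for Vcam1. Over the 11 mice, 13 of the 36 pairs of the 9 genes had a Pearson's r of log2 CPM over 0.8, and 8 were below 0. The 15 pairs among Jam3, Cadm1, Cldn11, Ocln, Gja1 and Itga6 had an r between 0.77 and 0.98, the highest being that of Cldn11 with Gja1. These 6 genes were picked from the same values, so that high coefficients among them follow in part from the choice. The share over pairs of all tested genes was not computed. Cdh2 had an r below 0 with each of the other 8 genes, between -0.59 with Itga6 and -0.41 with Gja1. These coefficients describe the 11 libraries, which share their scaling, and include the difference between genotypes.

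The levels of the 9 genes in each mouse were compared with marker scores. The Sertoli cell score, from 14 markers that hold none of the 9 genes, was 6.92 ± 0.26 (SD, n = 5) in WT and 6.59 ± 0.10 (SD, n = 6) in Rfx2-/- mice, a difference of -0.34 (exact two-sided permutation p = 0.0173; BH-adjusted over the 8 marker lists 0.0649) that was -0.18 without WT mice 3 and 5. All 14 markers had a log2 fold change below 0, with a median of -0.36, and none was called. At an edgeR adjusted p of at most 0.05, 4 of them were lower, where 8.78% of all tested genes were. Wt1 and Inha, named after their values were seen, were lower without overlap between genotypes, where 5.20% of all tested genes were. The summed level of the 14 markers was 3395 to 5261 CPM in WT and 3282 to 3852 CPM in Rfx2-/- mice. With this score as a covariate of the edgeR fit, the log2 fold changes of Cldn11, Ocln, Gja1, Itga6, Jam3 and Tjp1 turned to 0.12, 0.18, 0.11, 0.01, 0.17 and 0.05, that of Cadm1 shrank to -0.11 and that of Cdh2 turned to -0.09, and none of these was called. Vcam1 had a log2 fold change of -0.98 in this fit and was no longer called either (edgeR, BH-adjusted p = 0.0154). The covariate itself was lower in Rfx2-/- mice, so that it takes up part of the genotype difference by construction.

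**Figure D3:**
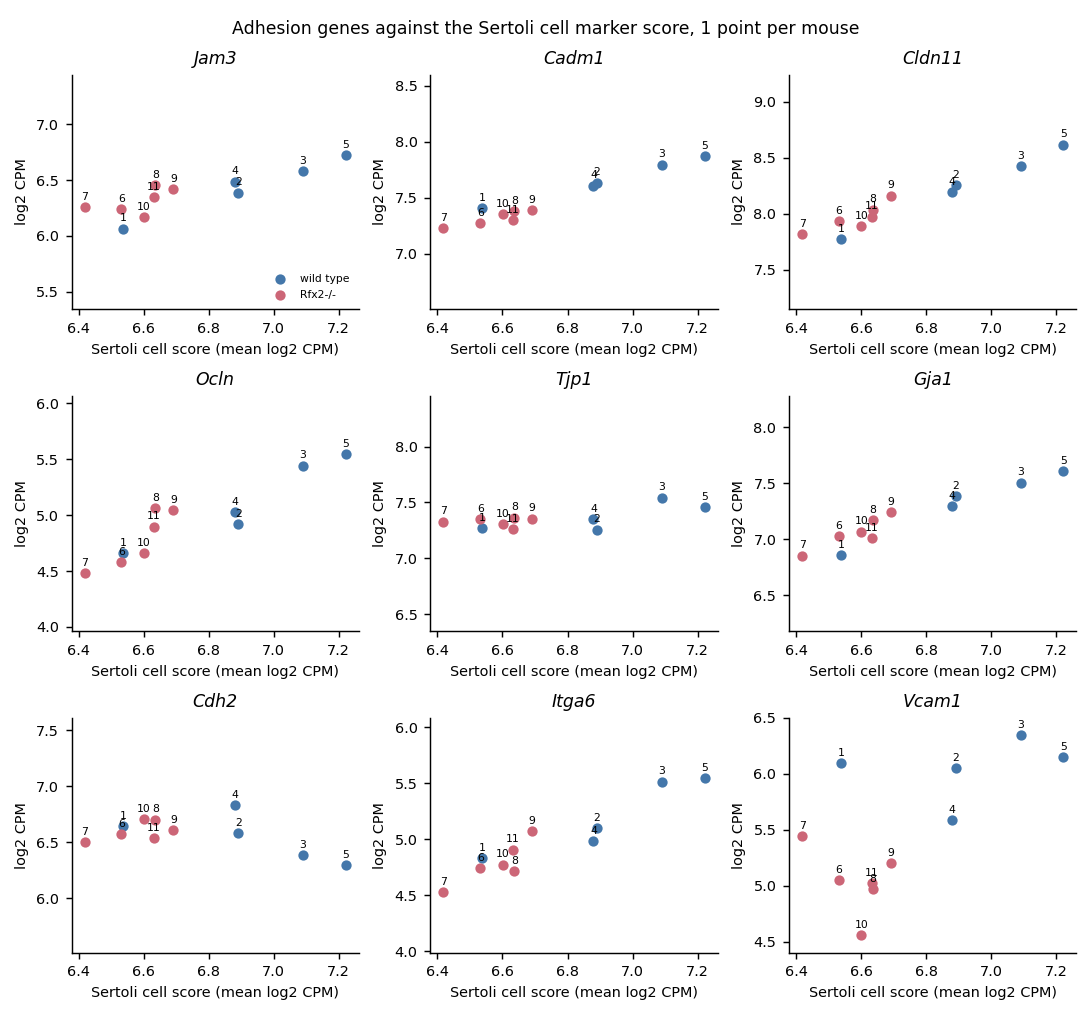
Level of each of the 9 genes (log2 CPM, vertical axes of equal span that start at different levels) against the Sertoli cell marker score (mean log2 CPM, horizontal axes), 1 point per mouse with its replicate number. Cldn11, Gja1 and Cadm1 are higher along the score in both genotypes, Cdh2 is lowest in WT mice 3 and 5, and for Vcam1 all Rfx2-/- mice lie below all WT mice.

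Across the 11 mice, 7 of the 9 genes had a Pearson's r above 0 with the Sertoli cell score at a permutation p adjusted over all 15745 tested genes of at most 0.05, where 30.2% of all tested genes had such an r above 0 and 30.6% had one below 0. The count among the 9 genes is to be read against these shares. Cadm1 had r = 0.97 and rho = 0.90 (permutation p = 1e-05 and 0.00048), the smallest p that 100000 permutations give being 1e-05. For Cldn11 r was 0.97 and rho 0.95 (permutation p = 3e-05 for both), and for Gja1 r was 0.96 and rho 0.95 (permutation p = 1e-05 and 2e-05). Within the 6 Rfx2-/- mice alone r was 0.89 for Cadm1, 0.86 for Cldn11 and 0.90 for Gja1 (exact permutation p = 0.00833, 0.0264 and 0.0181, of which the smallest possible is 0.00139). There it was 0.89 for Ocln and 0.87 for Itga6 (exact permutation p = 0.00694 and 0.0222). For Jam3 it was only 0.58 and for Tjp1 -0.008 (exact permutation p = 0.237 and 0.983).

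Itga6 had r = 0.95 and rho = 0.89 with the same score (permutation p = 5e-05 and 0.00058), Ocln r = 0.92 and rho = 0.91 (permutation p = 8e-05 and 0.0002), and Jam3 r = 0.86 and rho = 0.85 (permutation p = 0.00071 and 0.00162). Adjusted over all tested genes, the permutation p of r was 0.000129 for Cadm1 and Gja1, 0.000261 for Cldn11, 0.000371 for Itga6, 0.000516 for Ocln and 0.00243 for Jam3. Without WT mice 3 and 5, the mice farthest from the median score, r was between 0.75 and 0.93 for Cadm1, Gja1, Cldn11, Itga6 and Ocln, while that of Jam3 was 0.66 (permutation p = 0.0555). Tjp1 had r = 0.66 and rho = 0.46 (permutation p = 0.0267 and 0.154, adjusted 0.0448 and 0.219), and r fell to -0.09 without those mice, on which the relation therefore rests. Vcam1 had r = 0.64 and rho = 0.54 (permutation p = 0.0348 and 0.0942, adjusted 0.0561 and 0.146), with r = 0.31 without those mice and -0.44 within the Rfx2-/- mice (exact permutation p = 0.375). For Cdh2 r was -0.48 and rho -0.21 (permutation p = 0.136 and 0.541, adjusted 0.183 and 0.603). The sign of its r turned without WT mice 3 and 5, to 0.52 (permutation p = 0.148). Within the Rfx2-/- mice it was 0.56 (exact permutation p = 0.244).

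The spermatid marker score varied most of all between mice. It ran from -1.39 in WT mouse 5 to 5.09 in WT mouse 1 and from 0.63 to 5.28 in Rfx2-/- mice, and the summed level of the 14 markers was 10.2 to 568 CPM in WT and 35.6 to 751 CPM in Rfx2-/- mice. The difference between genotypes was 1.24 (exact permutation p = 0.364, adjusted over the 8 lists 0.416), and it was 2.18 without WT mouse 1, 0.56 without WT mouse 5 and -0.12 without WT mice 3 and 5. Of the list, 9 of the 14 markers had a log2 fold change above 0. Spaca7 had a count of 0 in at least 1 library. Of the 9 adhesion genes, 6 had an r below 0 with this score at an adjusted permutation p of at most 0.05, where 22.8% of all tested genes had one below 0 and 23.9% one above 0. Ocln had r = -0.92 and rho = -0.95 (permutation p = 0.0001 and 2e-05), and Jam3, itself a spermatid gene by its known protein, had r = -0.91 and rho = -0.93 (permutation p = 0.00012 and 0.00015). For Gja1 r was -0.86 and rho -0.85 (permutation p = 0.00075 and 0.00156), and for Cldn11 r was -0.86 and rho -0.88 (permutation p = 0.00068 and 0.00067).

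Cadm1 had r = -0.72 and rho = -0.72 with the spermatid score (permutation p = 0.0154 and 0.0169) and Itga6 r = -0.75 and rho = -0.70 (permutation p = 0.00735 and 0.0208). Both relations were weaker without WT mouse 5 and Rfx2-/- mouse 7, the 2 mice farthest from the median score. Without them r was still below 0, at -0.49 for Cadm1 and -0.52 for Itga6 (permutation p = 0.182 and 0.153). Without the same 2 mice it was -0.93 for Jam3, -0.86 for Ocln, -0.76 for Cldn11 and -0.75 for Gja1. The adjusted permutation p of r was 0.00131 for Ocln, 0.00148 for Jam3, 0.00444 for Cldn11, 0.00473 for Gja1, 0.0211 for Itga6 and 0.0365 for Cadm1. Tjp1 had r = -0.65 and rho = -0.70 (permutation p = 0.0272 and 0.0203, adjusted 0.0565 and 0.0479), Cdh2 r = 0.22 and rho = 0.15 (permutation p = 0.514 and 0.656), and Vcam1 r = -0.20 and rho = -0.33 (permutation p = 0.547 and 0.328). Within the 6 Rfx2-/- mice, mouse 7 included, Ocln had r = -0.97 (exact permutation p = 0.00139, the smallest possible) and Jam3 r = -0.77 (exact permutation p = 0.0819). In the same mice r was -0.92 for Cadm1, -0.92 for Gja1, -0.89 for Cldn11 and -0.72 for Itga6 (exact permutation p = 0.0153, 0.0125, 0.0194 and 0.107). For Tjp1, Cdh2 and Vcam1 the exact permutation p was at least 0.229. With the spermatid score as a covariate, the log2 fold change of Cadm1 was -0.28 and was called (edgeR, BH-adjusted p = 0.00549), that of Vcam1 was -1.03 (edgeR, BH-adjusted p = 0.0016), and that of Ocln was reduced to -0.17 (edgeR, BH-adjusted p = 0.0937).

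**Figure D4:**
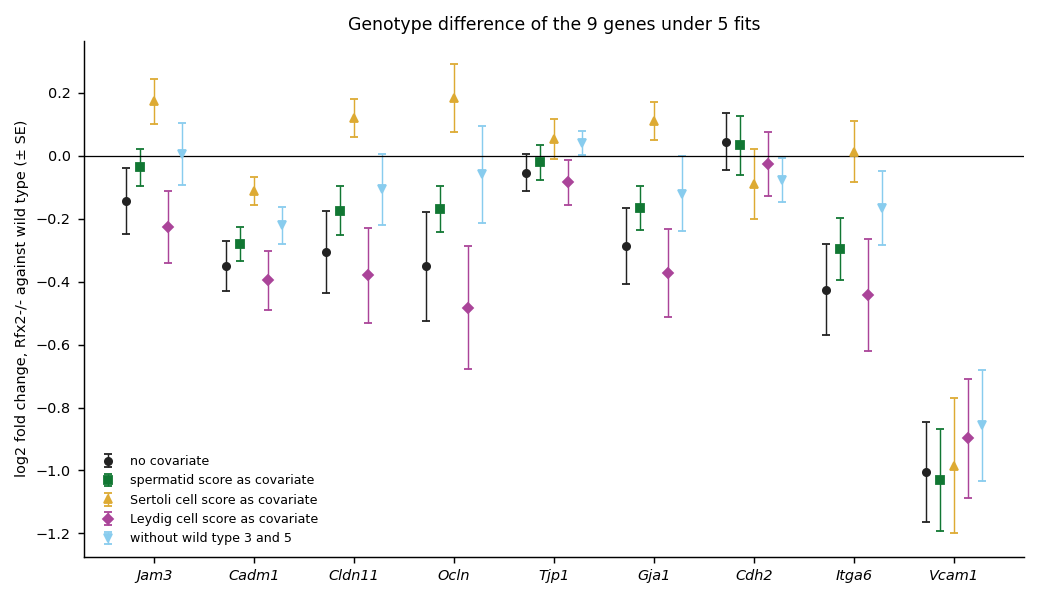
Log2 fold change ± SE (vertical axis, Rfx2-/- against WT) of the 9 genes in 5 edgeR fits, without a covariate, with the spermatid, Sertoli cell or Leydig cell marker score as a covariate, and without WT mice 3 and 5. Vcam1 stays between -1.03 and -0.86, Cadm1 between -0.40 and -0.11, and the other genes lie between -0.48 and 0.18.

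Markers of the other cell types of the testis were set beside Vcam1. Of the 7 Leydig cell markers, 6 had a log2 fold change below 0, with a median of -0.57, and 1 was called lower, Hsd3b1, a steroid dehydrogenase, at -0.86 ± 0.12 (SE; edgeR, BH-adjusted p = 0.00126). Their score differed by -0.59 (exact permutation p = 0.113, adjusted over the 8 lists 0.173; -0.60 without WT mice 3 and 5), and their summed level was 134 to 322 CPM in WT and 78.3 to 285 CPM in Rfx2-/- mice. Cyp11a1, the other Leydig cell marker named by its level, had 59.0 ± 27.1 CPM (SD, n = 5) in WT and 39.6 ± 21.1 CPM (SD, n = 6) in Rfx2-/- testis. Lhcgr, the receptor of luteinizing hormone, and Hsd17b3, chosen after their values were seen, were like Hsd3b1 without overlap between genotypes, whereas the other 4 markers overlapped: Cyp11a1, Star at a log2 fold change of -0.35, Insl3 at -0.51 and Cyp17a1 at 0.09, none of them called. Of all tested genes 5.20% were lower without overlap, and of the 14 Sertoli cell markers 2 were. WT mouse 4 had the lowest Vcam1 level of its group. Hsd3b1, Hsd17b3, Cyp11a1 and Cyp17a1 were also at their lowest WT levels in it, 72.7, 2.66, 31.4 and 6.48 CPM. Lhcgr was lowest in WT mouse 1, with 4.47 CPM, Star in WT mouse 5, with 13.1 CPM, and Insl3 in WT mouse 3, with 0.653 CPM. The Leydig cell, endothelial cell, macrophage and peritubular myoid cell scores of WT mouse 4 were the lowest WT ones too, at 3.05, 2.11, 2.96 and 4.84. The Sertoli cell score was lowest in WT mouse 1. Rfx2-/- mouse 7, with the highest Vcam1 level of its group, had the highest Hsd3b1 level, 60.1 CPM, and the lowest Hsd17b3 level, 1.86 CPM. Its Leydig cell, endothelial cell, macrophage and peritubular myoid cell scores were not the highest of its group. With the Leydig cell score as a covariate, added after the data were seen, the log2 fold change of Vcam1 was -0.90 (edgeR, BH-adjusted p = 0.0297).

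**Figure D5:**
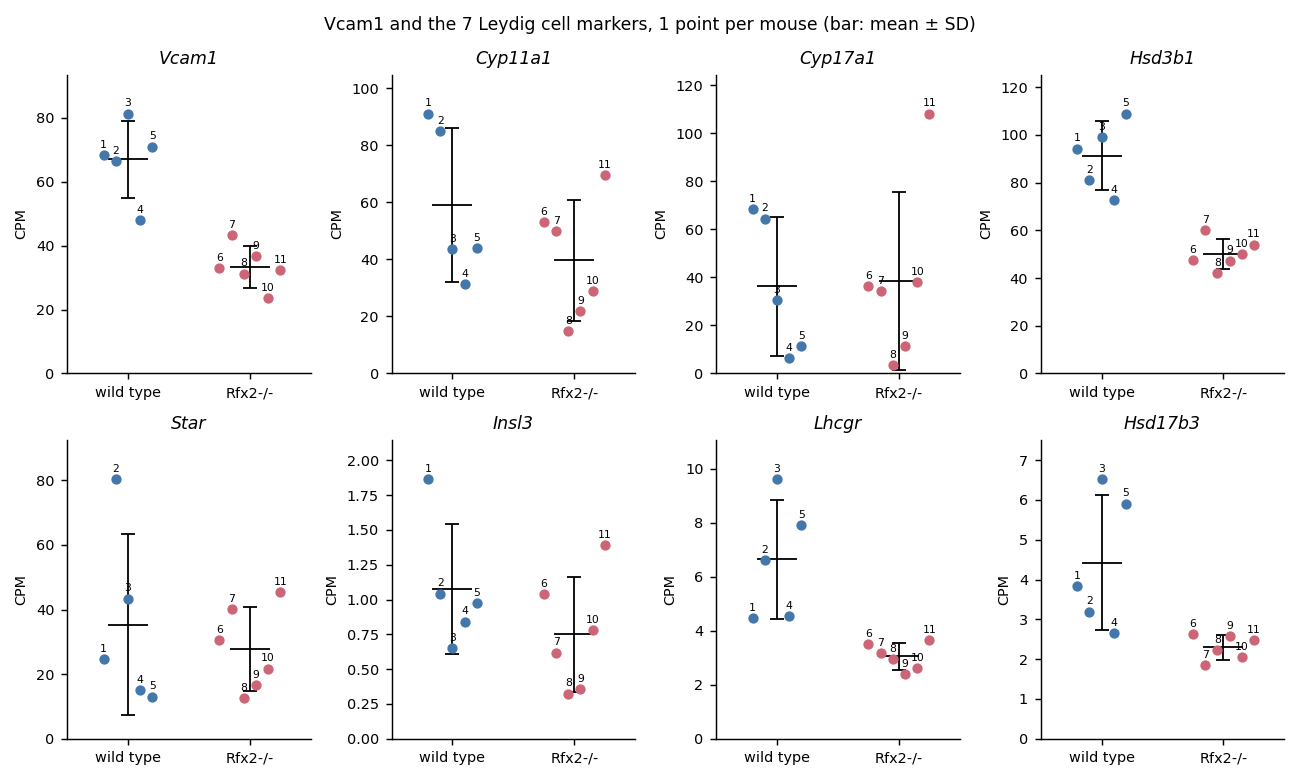
Level in CPM (vertical axes, from 0) of Vcam1 and of the 7 Leydig cell markers in 5 WT and 6 Rfx2-/- mice, with replicate numbers and mean ± SD. Every Rfx2-/- mouse lies below every WT mouse for Vcam1, Hsd3b1, Lhcgr and, by the narrowest margin, Hsd17b3, while the genotypes overlap for Cyp11a1, Cyp17a1, Star and Insl3.

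The 5 endothelial cell markers were all below 0, with a median of -0.44, and their summed level was 27.8 to 53.8 CPM in WT and 28.8 to 32.5 CPM in Rfx2-/- mice (score difference -0.37, exact permutation p = 0.0303, adjusted 0.0649). All 6 macrophage markers were below 0 as well, with a median of -0.47 and a summed level of 78.1 to 128 against 65.2 to 89.9 CPM (score difference -0.46, exact permutation p = 0.0281, adjusted 0.0649). Of the 5 peritubular myoid cell markers 4 were below 0, with a median of -0.07 and a score difference of -0.04 (exact permutation p = 0.797), and of the 10 spermatogonial markers tested 7 were below 0, with a median of -0.30 and a score difference of -0.13 (exact permutation p = 0.13). Of the 9 spermatocyte markers 6 were above 0, with a median of 0.26 and a score difference of 0.35 (exact permutation p = 0.0325, adjusted 0.0649). Without WT mice 3 and 5 the score differences were -0.17 for endothelial cells, -0.23 for macrophages, 0.17 for peritubular cells, -0.029 for spermatogonia and 0.12 for spermatocytes. No marker of these lists was called, and the part of these cell types in the difference of Vcam1 was not tested.

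The genes most like each of the 9 in their pattern over the 11 mice were found by the highest Pearson's r of log2 CPM among all other tested genes. They were Ndrg2 (r = 0.97) and Decr1 (r = 0.96) for Vcam1, Cldn12 and Scarb2 (both r = 0.99) for Cadm1, and Rab14 (r = 0.99) and Snx16 (r = 0.98) for Jam3. For the barrier genes they were E2f1 and Glud1 (both r = 0.99) for Cldn11, Suv39h1 and Heatr3 (both r = 0.99) for Ocln, Arxes2 (r = 0.99) and Slc27a6 (r = 0.98) for Gja1, and Brox and Zdhhc20 (both r = 0.95) for Tjp1. Lonp1 and Sema6c (both r = 0.99) were most like Itga6, and Cblb (r = 0.94) and Dsn1 (r = 0.93) most like Cdh2. Cldn12, another claudin, is itself a gene of the wider tight junction list.

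Around the 9 genes, 93 further genes of junctions and adhesion were listed, of which 90 were tested. Of these, 1 was called lower and 0 higher, where 1.94% of all tested genes were called lower and 0.730% higher. A log2 fold change below 0 was found for 75, where 54.8% of all tested genes had one, and the median was -0.29. At an adjusted p of at most 0.05, 9 were lower and 2 higher, where the shares of all tested genes were 8.78% and 6.15%. The called gene was Ncam1, which encodes a neural cell adhesion molecule of the Ig superfamily. Its level was 11.3, 6.96, 2.75, 7.29 and 3.55 CPM in WT mice and 0.9997 CPM at the lowest, 1.27 at the median and 2.35 at the highest in Rfx2-/- mice. WT mice 3 and 5 came closest to the Rfx2-/- mice here, in contrast to most of the 9 genes. Its log2 fold change was -2.04 ± 0.39 (SE; edgeR, BH-adjusted p = 0.00957), and its adjusted p rose above 0.01 under DESeq2 size factors (0.0104), without a filter on low counts (0.0109), with the Leydig cell covariate (0.0423) and in 9 of the 11 fits that left out 1 mouse, up to 0.029. With the Sertoli cell and the spermatid covariate Ncam1 stayed called, at -2.96 and -2.27 (edgeR, BH-adjusted p = 3.16e-05 and 0.000142).

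Among the 20 other tight junction genes, 18 were below 0, with a median of -0.36, and none was called. Cingulin, the product of Cgn, had 149 ± 37.4 CPM (SD, n = 5) in WT and 103 ± 13.3 CPM (SD, n = 6) in Rfx2-/- testis, a log2 fold change of -0.53 (edgeR, BH-adjusted p = 0.0462), and Lsr, a protein of tricellular junctions, had -0.34 (edgeR, BH-adjusted p = 0.0787). Of the 8 genes of the nectin and SynCAM family, 7 were below 0, with a median of -0.13. Nectin3, which spermatids use to bind nectin-2 on Sertoli cells, was above 0, with 287 ± 116 CPM in WT and 421 ± 82.7 CPM in Rfx2-/- testis (log2 fold change 0.55; edgeR, BH-adjusted p = 0.127), and the adaptor gene Afdn was at -0.04. The 13 cadherin and catenin genes had a median of -0.17, with 12 below 0, and the most abundant, Ctnnb1 for beta-catenin and Ctnnd1 for p120 catenin, were at -0.17 and -0.09, though Ctnnd1 shares exon sequence with a further annotated gene. Of the 10 gap junction genes tested, 6 were below 0, with a median of -0.12, and Gjc1 and Gja6 were at -0.03 and -0.20.

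The 23 integrin, laminin and Ig-type ligand genes had the lowest median of the 6 lists, -0.41, with 22 below 0 and Ncam1 as the called gene. The 16 tested genes of the ectoplasmic specialization scaffold and actin list had a median of -0.12, with 10 below 0. The 2 genes that were higher at an adjusted p of at most 0.05 were both in this list: Dnm2, which encodes dynamin-2, had 281 ± 65.2 CPM in WT and 411 ± 39.1 CPM in Rfx2-/- testis (log2 fold change 0.55; edgeR, BH-adjusted p = 0.0337), and Fndc3a, named after its value was seen, had a log2 fold change of 0.55 (edgeR, BH-adjusted p = 0.0446). Bsg, which encodes basigin of germ and Sertoli cells, was at 0.31 (edgeR, BH-adjusted p = 0.0516).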

How the data were processed

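Whole decapsulated testis RNA at P21 was sequenced as single reads, from 6 mutant and 5 WT animals. The authors deposited raw read counts per gene, without normalization, and the submitters' processing notes name CASAVA 1.8.2, STAR 2.4, featureCounts 1.4.6 and GRCm38. Reads with more than 1 place in the genome were not kept, which lowers counts of genes with close copies. The 9 genes and all lists were chosen with earlier results of these data known.

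From the counts, 15745 genes that passed the filter of filterByExpr on low counts were tested with the quasi-likelihood test of edgeR 4.0.16 in R 4.3.3, with TMM scaling, genotype as the only term and Benjamini-Hochberg adjustment over all tested genes. The limit was an adjusted p of 0.01. Log2 CPM had a prior count of 2, and fitted fold changes one of 0.125. Alternatives used DESeq2 1.42.0, limma 3.58.1, other scaling, no filter, a mean of at least 50 reads, marker scores as covariates and left-out mice. The count fits were tested on simulated data. Marker scores were compared by exact two-sided permutation over 462 splits, and relations by 100000 permutations in NumPy 2.4.6, with ranks from SciPy 1.17.1. The p of the relations was adjusted over all tested genes and not, as planned, over the relations of the 9 genes. In all, 31490 relations with both scores were computed. The labels do not say whether litters were shared, and p-values measure the spread between these libraries. A floor of 3 counts was 0.0852 to 0.139 CPM and covers counting error only. Genes named from the wider lists and marker lists were those called or, where a list had none, the 2 of highest mean level, and for marker lists the 2 of highest level and any at 0. Exceptions are stated in the text. Every replicate pair differed by more than counting noise, with a chi-square per degree of freedom of at least 3.94.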

Additional observations from a re-analysis of the deposited data

How the results depend on the processing

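No paired analysis was possible because the labels do not say which mice were littermates. The 1 called member became 2 under the Wald test of DESeq2, limma voom, the spermatid covariate, an adjusted p of 0.05 or an unadjusted p of 0.01, and 0 under the Sertoli or Leydig cell covariate or without WT mice 3 and 5 (0 to 2 leaving out single mice). The Leydig cell covariate and the fit without WT mice 3 and 5 were chosen after seeing the data. Vcam1 lost its call at -0.98 (Sertoli covariate), -0.90 (Leydig covariate) and -0.86 (without WT mice 3 and 5), and ranged from -1.10 to -0.92 over single mice left out. Cadm1 was called at -0.32 (Wald), -0.30 (voom) and -0.28 (spermatid covariate), with -0.41 to -0.28 over single mice. Cdh2 turned to -0.11 (total counts), -0.021 (voom), -0.090 (Sertoli), -0.027 (Leydig) and -0.077 (without WT mice 3 and 5), with -0.0012 to 0.12 over single mice. Tjp1 turned to 0.010 (voom), 0.054 (Sertoli) and 0.042 (without WT mice 3 and 5), with -0.083 to 0.00017 over single mice. Under the Sertoli covariate Jam3 was 0.17, Cldn11 0.12, Ocln 0.18, Gja1 0.11 and Itga6 0.013, and Jam3 was 0.0057 without WT mice 3 and 5. Total counts moved the median of all genes to -0.22. The causes were not tested.

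Wider list genes called lower were 0 with DESeq2 size factors, 7 by Wald, 4 by voom, 0 without a filter, 4, 5 and 0 with the Sertoli, spermatid and Leydig covariates, 9 at an adjusted p of 0.05 and 12 at an unadjusted p of 0.01 (0 to 2 over single mice). Those called higher were 3 by Wald, 2 with the spermatid covariate, 2 at 0.05 and 3 unadjusted (0 to 1). Of all genes, 305 were called lower and 115 higher, against 911 and 1146 by Wald, 682 and 367 by voom, 642 and 64, 738 and 427, and 152 and 38 with the Sertoli, spermatid and Leydig covariates, 1382 and 968 at 0.05 and 1604 and 1180 unadjusted (184 to 393 and 45 to 192 over single mice). Ncam1 ranged from -2.22 to -1.73 and lost its call in 9 of 11 such fits.

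The spermatogonial difference was 0.36 from summed CPM. Without WT mice 3 and 5 the peritubular difference was 0.17 and the spermatid one -0.12. Over single mice left out, differences ran from -0.44 to -0.26 (Sertoli), -0.50 to -0.29 (endothelial), -0.58 to -0.37 (macrophage), -0.13 to 0.054 (peritubular), -0.78 to -0.42 (Leydig), 0.56 to 2.18 (spermatid), -0.18 to -0.090 (spermatogonial) and 0.25 to 0.46 (spermatocyte). Over the same, r with the Sertoli score ran from -0.72 to -0.14 for Cdh2, 0.53 to 0.80 for Tjp1 and 0.54 to 0.80 for Vcam1, and r with the spermatid score from -0.77 to -0.59 for Cadm1, -0.15 to 0.47 for Cdh2 and -0.71 to -0.56 for Tjp1.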

Other observations

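Set against the Sertoli cell score of the same mouse (log2 CPM minus score), the difference between genotypes was -0.00 for Cadm1, 0.01 for Ocln, 0.05 for Cldn11, 0.07 for Gja1 and -0.07 for Itga6, while it was 0.21 for Jam3, 0.29 for Tjp1 and 0.39 for Cdh2. For Vcam1 it was -0.67, spanning -1.29 to -0.44 over the WT group and -2.04 to -0.98 over the mutants, with overlap. These differences were not tested. Of the known partners of these proteins, named for that role after their values were seen, Itgb1, the beta1 chain that pairs with alpha6, had a log2 fold change of -0.38 (edgeR, BH-adjusted p = 0.0834), and Itga4, a chain of the integrin that binds VCAM1, had 0.18 (edgeR, BH-adjusted p = 0.51).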
